A study of Mus musculus with 10 samples.

Results

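The 9 genes described here encode enzymes, or subunits of enzymes, of the tricarboxylic acid (TCA) cycle: Cs, Idh3a, Idh2, Ogdh, Suclg1, Sucla2, Suclg2, Fh1 and Mdh2. They were chosen by name, with earlier results of these data known, and are 9 of the 38922 genes in the files. All 9 were among the 13719 genes with enough counts to be tested. Their RNA was measured in livers of 6-week-old wildtype males of the inbred strain C57BL/6N, which were fed standard chow. One group of 5 mice received an intraperitoneal injection of 0.5 µg/g of a CD95-activating antibody (CD95-Ab), which triggers the death receptor Fas, and the other 5 mice received the same volume of saline. All livers were taken 6 h after the injection, no mouse carried a transgene by its labels, and each mouse gave its own library of whole-liver RNA. The comparison asks how the transcripts of the cycle differed between acutely injured and control liver.

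The TCA cycle runs in the mitochondrial matrix. It oxidizes the acetyl group of acetyl-CoA to carbon dioxide and passes the electrons to the respiratory chain as NADH and reduced flavin. In hepatocytes its intermediates are also the starting points of gluconeogenesis, amino acid and urea metabolism, and lipid synthesis, so that the cycle is both fed and drained at several steps. Its enzymes are encoded in the nucleus and imported into mitochondria.

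Libraries held between 25965699 and 62097636 counts in saline-injected mice and between 27480796 and 44962196 counts after CD95-Ab. The least abundant of the 9 genes had at least 600 counts in every mouse, so that counting error was small beside the spread between mice. Saline replicate 5 and CD95-Ab replicate 4 stood apart from the other 8 mice on the second principal component, which held 9.84% of the variance, with scores of 45.9 and 48.9 where no other mouse exceeded 4.54. Compared with the other mice of its group, saline replicate 5 had a median log2 difference of 0.21 over 3926 genes with short transcripts and of -0.21 over 3927 genes with long ones. The same values for CD95-Ab replicate 4 were 0.30 and -0.26. No label names a batch. Values of the 9 genes are given with and without both libraries, the latter a choice made after seeing the data.

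Of the 9 genes, 2 fell after CD95-Ab and none rose at a false discovery rate (FDR) of 0.05 or less in edgeR's quasi-likelihood test with Benjamini-Hochberg adjustment over all tested genes. The 2 genes were Idh2 and Suclg1. Among all tested genes 47.3% passed this threshold, 22.0% lower and 25.4% higher, so the share of lower genes among the enzymes, 22.2%, lay at the share of all genes. For the same 2 genes all 5 mice injected with CD95-Ab were below all 5 controls, which held for 14.7% of all tested genes. The opposite separation, found for 18.6% of tested genes, was seen for none of the 9. No enzyme gene reached a log2 fold change of -2 or less, as 1.11% of tested genes did, or of 2 or more, as 6.59% did. The median log2 fold change was -0.20 over the 9 genes and 0.01 over all tested genes. Point estimates were below 0 for 8 genes, and the estimate for Fh1, 0.07, turned to -0.02 with upper quartile scaling and to -0.00 with library totals alone. The summed level of the 9 genes was 1052 ± 64.2 CPM (counts scaled to a common library total; SD, n = 5) in controls, with a range of 958 to 1103, and 903 ± 66.1 CPM (SD, n = 5) after CD95-Ab, with a range of 852 to 1016. These ranges overlapped through CD95-Ab replicate 3. Without saline replicate 5 and CD95-Ab replicate 4, again 2 genes were lower and none higher, with a median log2 fold change of -0.22.

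**Figure D1:**
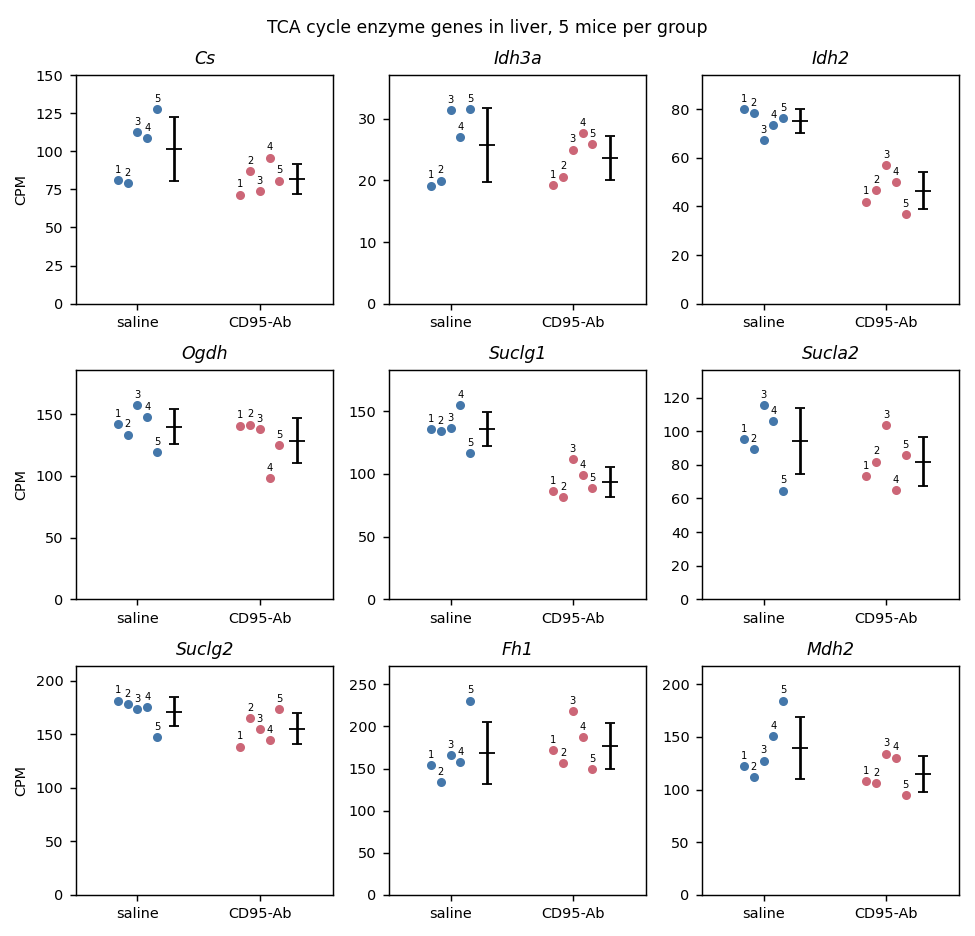
Level of each of the 9 genes in CPM (vertical axes, from 0) in every mouse; points are mice with their replicate numbers, and bars are means with SD of 5 mice per group. The groups are separate for Idh2 and Suclg1 and overlap for the other 7 genes.

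Idh2 encodes the mitochondrial isocitrate dehydrogenase that uses NADP and supplies NADPH in the matrix (ENSMUSG00000030541; GRCm38 chromosome 7, 80094846 to 80115392, minus strand). In saline replicates 1 to 5 its level was 79.9, 78.5, 67.2, 73.4 and 76.4 CPM. In CD95-Ab replicates 1 to 5 it was 42.0, 46.7, 57.0, 49.97 and 36.9 CPM. Every treated mouse lay below every control, with CD95-Ab replicate 3 nearest to the controls. The mean was 75.1 ± 5.04 CPM in controls and 46.5 ± 7.64 CPM after CD95-Ab (SD, n = 5 per group), so that the log2 fold change was -0.69 (standard error 0.13, 95% interval -0.97 to -0.41, FDR = 9.38e-04 by edgeR's quasi-likelihood test). Without the pair of libraries that stood apart the log2 fold change was -0.72. In whole liver, fewer cells of a type and less RNA per cell cannot be told apart, for this and every gene below.

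Suclg1 encodes the alpha subunit of succinyl-CoA ligase, which is shared by both forms of the enzyme (ENSMUSG00000052738; chromosome 6, 73248382 to 73276911, plus strand). Its level was 136, 134, 136, 155 and 117 CPM in saline replicates 1 to 5. It was 86.4, 81.6, 112, 99.0 and 88.6 CPM in CD95-Ab replicates 1 to 5. The groups did not overlap, although CD95-Ab replicate 3 came close to saline replicate 5. The mean was 136 ± 13.6 CPM in controls and 93.5 ± 12.1 CPM after CD95-Ab (SD, n = 5 per group), which on the log2 scale is a change of -0.54 (standard error 0.12, 95% interval -0.81 to -0.26, FDR = 0.00396 by edgeR's quasi-likelihood test). Without both libraries that stood apart it was -0.62.

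Markers of liver and blood cell types also differed between the groups. Hepatocyte markers summed to between 103832 and 126546 CPM in controls and between 50977 and 86820 CPM after CD95-Ab, mostly albumin. Of the 8 markers 3 fell, Alb, Ttr and Asgr1 (log2 fold changes -1.03, -0.93 and -0.46). The other 5 did not pass: Cps1, Apoa1, Hnf4a and Serpina1c had values of -0.72, -0.39, -0.34 and -0.28, and Apob 0.17. Neutrophil markers rose from between 3.08 and 7.25 to between 89.9 and 405 CPM, with 5 of 5 tested of 8 higher, and Ly6g, Mpo and Camp were too low to be tested. Macrophage markers went from between 88.5 and 273 to between 178 and 362 CPM. The 4 of 8 that were higher were Ly6c2, Ccr2, Marco and Cd68 (log2 fold changes 4.36, 3.26, 2.11 and 1.79). Adgre1 and Csf1r, at 0.86 and 0.60, did not pass. The values of Clec4f and Vsig4, which define Kupffer cells, were 0.10 and -0.02, also without passing. Higher genes numbered 5 of 6 for endothelial cells, 3 of 6 for stellate cells, 4 of 5 for cholangiocytes, 6 of 6 for lymphocytes and 5 of 5 for erythroid cells. The marker counts stand beside 25.4% higher and 22.0% lower over all tested genes. The erythroid sum went from between 135 and 323 CPM to between 1064 and 33995 CPM. Rn7sk, a non-polyadenylated RNA and not a cell type marker, was at most 0.808 CPM in controls and at least 355 CPM after CD95-Ab. Rpph1, the other tested RNA of this kind, rose by 5.70 on the log2 scale. The part of these changes, or of any difference in RNA preparation between the groups, in the values of the 9 genes was not tested.

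The beta subunits of succinyl-CoA ligase decide which nucleotide the enzyme forms. Sucla2 encodes the subunit for ATP (ENSMUSG00000022110; chromosome 14, 73525319 to 73596142, plus strand), with 95.4, 89.3, 116, 106 and 64.7 CPM in saline replicates 1 to 5 and 73.3, 82.0, 103, 64.8 and 86.0 CPM in CD95-Ab replicates 1 to 5. The lowest mouse of each group was one of the libraries that stood apart, and both were at nearly the same level. Its log2 fold change was -0.20 (95% interval -0.58 to 0.17, FDR = 0.357 by edgeR's quasi-likelihood test), and -0.25 (FDR = 0.132) without both libraries. Leaving out 1 mouse moved it between -0.32 (without saline replicate 5, FDR = 0.0834) and -0.12 (without saline replicate 3). Suclg2 encodes the subunit for GTP (ENSMUSG00000061838; chromosome 6, 95473009 to 95718800, minus strand), with 182, 178, 174, 176 and 147 CPM in controls and 139, 165, 155, 145 and 173 CPM after CD95-Ab, both in replicate order. Apart from saline replicate 5, every control lay above every treated mouse, the closest being saline replicate 3 and CD95-Ab replicate 5. Suclg2 had a log2 fold change of -0.14 (95% interval -0.39 to 0.11, FDR = 0.331 by edgeR's quasi-likelihood test), and -0.18 (FDR = 0.175) without the libraries that stood apart.

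Citrate synthase, encoded by Cs, joins acetyl-CoA to oxaloacetate at the entry of the cycle (ENSMUSG00000005683; chromosome 10, 128337734 to 128362479, plus strand). Its level was 81.0, 79.1, 112, 109 and 127 CPM in saline replicates 1 to 5 and 71.5, 87.0, 73.6, 95.9 and 80.8 CPM in CD95-Ab replicates 1 to 5. Saline replicates 1 and 2 lay within the range of the treated mice and the other controls above it. The log2 fold change was -0.32 (standard error 0.16, 95% interval -0.65 to 0.02, FDR = 0.115 by edgeR's quasi-likelihood test). The call depended on the processing. With library totals alone the log2 fold change was -0.38 with an FDR of 0.0334. Limma on log2(FPKM + 0.1), which differs in test and data too, gave -0.38 with an FDR of 0.0231. Cs did not pass with upper quartile scaling (FDR = 0.0569 by the quasi-likelihood test) or in DESeq2 (FDR = 0.0896). Its log2 fold change was -0.22 (FDR = 0.235) without saline replicate 5 and -0.29 (FDR = 0.109) without both libraries that stood apart.

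Mdh2 encodes the mitochondrial malate dehydrogenase, which regenerates oxaloacetate at the close of the cycle (ENSMUSG00000019179; chromosome 5, 135778480 to 135790398, plus strand). Controls had 122, 112, 127, 151 and 185 CPM and treated mice 108, 106, 134, 130 and 94.8 CPM, in replicate order. Saline replicate 5 was the highest mouse, and the groups overlapped through saline replicates 1 to 3 and CD95-Ab replicates 3 and 4. The log2 fold change was -0.28 (standard error 0.16, 95% interval -0.63 to 0.07, FDR = 0.170 by edgeR's quasi-likelihood test). It was -0.35 with an FDR of 0.0414 when library totals alone were used, and -0.30 with an FDR of 0.0458 by limma on log2(FPKM + 0.1). Mdh2 did not pass with upper quartile scaling (FDR = 0.0882 by the quasi-likelihood test) or in DESeq2 (FDR = 0.149). Without saline replicate 5 its log2 fold change was -0.16 (FDR = 0.359), and without both libraries that stood apart -0.22 (FDR = 0.199).

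Fh1 encodes fumarase, which hydrates fumarate to malate (ENSMUSG00000026526; chromosome 1, 175600374 to 175625635, minus strand). Its level was 154, 134, 166, 158 and 231 CPM in saline replicates 1 to 5 and 172, 156, 218, 187 and 149 CPM in CD95-Ab replicates 1 to 5. Saline replicate 5 was above all other mice, and the remaining controls lay within or below the range of the treated mice. The log2 fold change was 0.07 (standard error 0.16, 95% interval -0.29 to 0.42, FDR = 0.765 by edgeR's quasi-likelihood test), and 0.17 (FDR = 0.315) without the libraries that stood apart. The gene Kmo overlaps Fh1 on the opposite strand with 0 bp of shared exon.

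Ogdh encodes the first component of the 2-oxoglutarate dehydrogenase complex (ENSMUSG00000020456; chromosome 11, 6291633 to 6356642, plus strand). Its level was 142, 133, 157, 148 and 119 CPM in saline replicates 1 to 5 and 141, 141, 138, 98.3 and 125 CPM in CD95-Ab replicates 1 to 5. The lowest mouse of each group was again a library that stood apart. Ogdh had a log2 fold change of -0.12 (95% interval -0.41 to 0.17, FDR = 0.476 by edgeR's quasi-likelihood test). It was -0.05 (FDR = 0.717) without CD95-Ab replicate 4, -0.08 (FDR = 0.673) without saline replicate 3, and -0.10 (FDR = 0.408) without both libraries that stood apart. Idh3a encodes the catalytic subunit of the isocitrate dehydrogenase that uses NAD (ENSMUSG00000032279; chromosome 9, 54586334 to 54604661, plus strand), with 19.1, 19.95, 31.4, 27.0 and 31.5 CPM in controls and 19.3, 20.6, 25.0, 27.7 and 25.8 CPM after CD95-Ab, in replicate order. All treated mice lay within the range of the controls. Its log2 fold change was -0.13 (95% interval -0.50 to 0.25, FDR = 0.571 by edgeR's quasi-likelihood test), and -0.11 (FDR = 0.608) without both libraries. Leaving out 1 mouse moved it between -0.22 (without saline replicate 1) and -0.05 (without saline replicate 5).

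**Figure D2:**
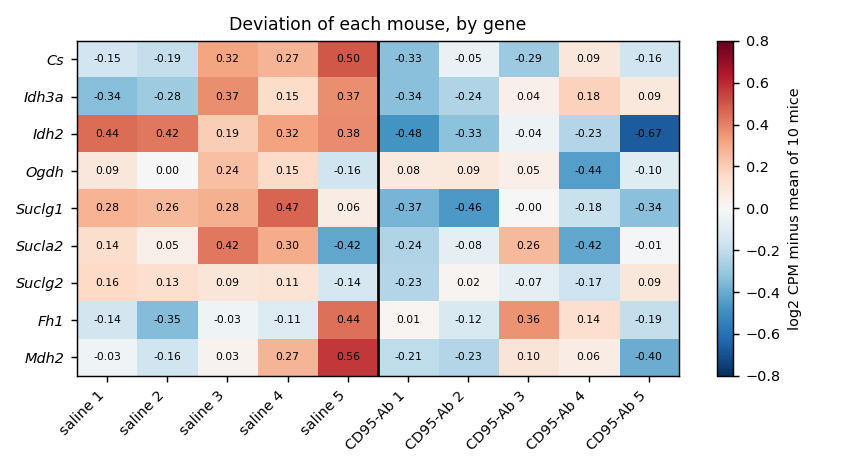
Deviation of log2 CPM from the mean of all 10 mice for each gene (rows) and mouse (columns), with values printed and the groups divided by a line. The Idh2 and Suclg1 rows change sign or reach 0 at the line, while saline replicate 5 is at 0.56 for Mdh2 and -0.42 for Sucla2.

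The deviations of single mice were not shared by all genes. Saline replicate 5 was the highest of the 5 controls for 4 genes, Cs, Idh3a, Fh1 and Mdh2, and the lowest for another 4, Ogdh, Sucla2, Suclg1 and Suclg2. Its difference from the mean of the other controls on the log2 scale ran from -0.64 for Sucla2 to 0.60 for Fh1. CD95-Ab replicate 4 differed from the other treated mice by -0.47 for Ogdh and -0.40 for Sucla2, and by 0.30 for Cs and for Idh3a. Idh2 was the least displaced in saline replicate 5, by 0.03. CD95-Ab replicate 3 was the highest treated mouse for 5 of the 9 genes and the lowest for none.

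Ratios of 2 genes within a mouse do not depend on how libraries are scaled to each other, and 6 pairs were compared with exact two-sided permutation tests over mice, adjusted over the 6. The ratio of Suclg1 to Suclg2 counts, the shared subunit to the GTP subunit, was 0.748, 0.751, 0.785, 0.882 and 0.792 in saline replicates 1 to 5 and 0.624, 0.493, 0.723, 0.683 and 0.511 in CD95-Ab replicates 1 to 5. Every treated mouse was below every control. The mean was 0.792 ± 0.0544 against 0.607 ± 0.102 (SD, n = 5 mice each), a log2 difference of -0.40 (exact permutation p = 0.00794, the smallest that 5 against 5 allow, adjusted p = 0.0476). When 1 mouse at a time was left out the difference stayed between -0.46 and -0.33, with adjusted p from 0.0476 to 0.143 in the exact permutation test, and it did not pass in any of the 5 fits that left out a control. It was -0.44 without both libraries that stood apart (exact permutation p = 0.0286, the smallest that 4 against 4 allow, adjusted p = 0.171).

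The ratio of Idh2 to Idh3a, the NADP enzyme to the NAD enzyme, was 3.08 ± 0.918 in controls and 1.99 ± 0.370 after CD95-Ab (SD, n = 5 mice each). The log2 difference was -0.60 (exact permutation p = 0.0317, adjusted p = 0.0952), and only without saline replicate 3, which had the lowest ratio of the controls at 2.14, did it pass (-0.72, exact permutation adjusted p = 0.0476). The other 4 pairs did not pass the threshold. Log2 differences were -0.05 for Sucla2 to Suclg2, the ATP to the GTP subunit, and -0.17 for Cs to Ogdh (exact permutation adjusted p = 0.738 and 0.619). For mitochondrial against cytosolic enzymes they were -0.14 for Idh2 to Idh1 and 0.22 for Mdh2 to Mdh1 (exact permutation adjusted p = 0.619 and 0.413). The difference for Mdh2 to Mdh1 grew to 0.35 without saline replicate 5, the highest control at 0.396 (exact permutation p = 0.0238, adjusted p = 0.0714). It was 0.34 without both libraries that stood apart (exact permutation adjusted p = 0.171). The difference for Idh2 to Idh1 moved between -0.29 (without CD95-Ab replicate 3) and -0.03 (without CD95-Ab replicate 5), and that for Cs to Ogdh between -0.32 (without CD95-Ab replicate 4) and -0.03 (without saline replicate 5).

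**Figure D3:**
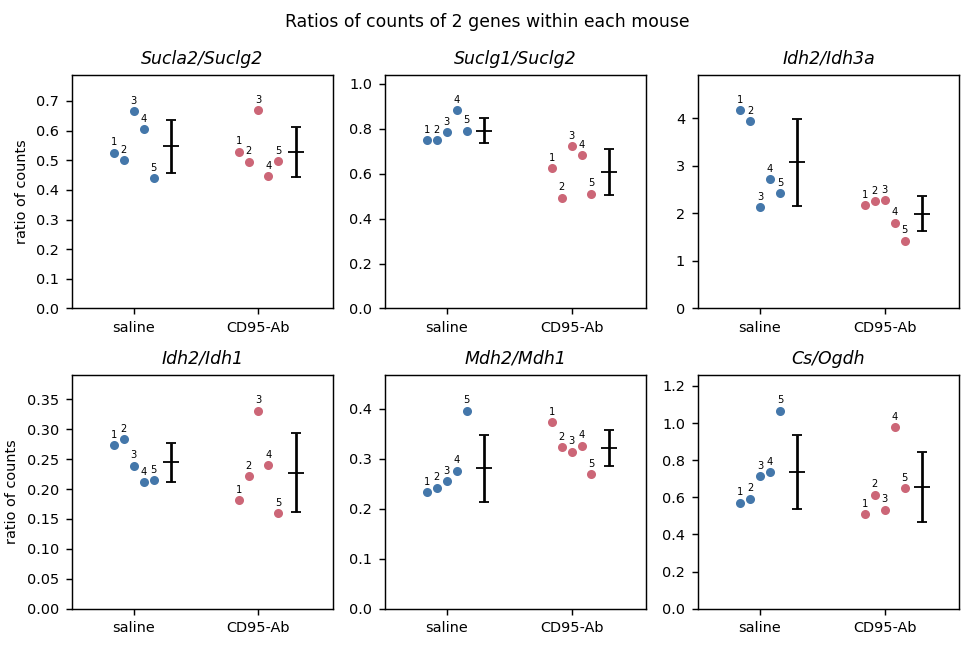
Ratio of the counts of 2 genes in each mouse (vertical axes, from 0) for the 6 pairs; points are mice with replicate numbers, and bars are means with SD of 5 mice per group. The groups are separate for Suclg1/Suclg2 and overlap for the other 5 pairs.

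Levels of different genes were compared per length, as FPKM. In saline-injected mice the order by mean was Mdh2 (105 ± 10.03 FPKM), Suclg1 (96.2 ± 15.6), Fh1 (90.0 ± 25.6), Suclg2 (80.2 ± 14.0), Sucla2 (53.4 ± 14.4), Idh2 (47.6 ± 6.78), Cs (37.3 ± 4.31), Ogdh (36.4 ± 5.99) and Idh3a (11.2 ± 1.86; SD, n = 5 each). Ranges of neighbours in this order overlapped except for Ogdh and Idh3a, at 26.1 to 41.2 and 9.18 to 13.9 FPKM. Within each of the 5 mice, Suclg2 was above Sucla2, Idh2 above Cs and Ogdh above Idh3a. For the other neighbours the order by mean held in 1 to 4 of the 5 mice. The highest mean was 9.36 times the lowest. After CD95-Ab the means ran from 87.0 ± 16.6 FPKM for Fh1, followed by 84.7 ± 7.55 FPKM for Mdh2, to 9.72 ± 0.870 FPKM for Idh3a (SD, n = 5 each). Idh2, at 27.0 ± 3.02 FPKM (SD, n = 5), then stood below Cs at 28.6 ± 2.87 FPKM (SD, n = 5) and Ogdh at 32.3 ± 6.77 FPKM (SD, n = 5), and these 3 ranges overlapped.

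Other enzymes of the cycle were read beside the 9, and beside the 22.0% of all tested genes that were lower. Of 8 such genes, 5 fell and none rose (median log2 fold change -0.38): Sdhb, Sdhd and Sdhc of succinate dehydrogenase (-0.63, -0.56 and -0.39), and Idh3b and Idh3g, the other subunits of the NAD isocitrate dehydrogenase (-0.55 and -0.38). Idh3b was between 107 and 132 CPM in controls and between 74.2 and 94.9 CPM after CD95-Ab, with no overlap. The values for Sdha, Dlst and Dld were -0.29, -0.19 and 0.01, and none of the 3 passed. Idh3a, Idh3b and Idh3g encode parts of a single enzyme, and their 95% intervals of -0.50 to 0.25, -0.81 to -0.28 and -0.64 to -0.11 overlapped. The differences between these 3 genes were not tested. When 1 mouse was left out, between 3 (without CD95-Ab replicate 1) and 6 of these 8 enzymes passed as lower.

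**Figure D4:**
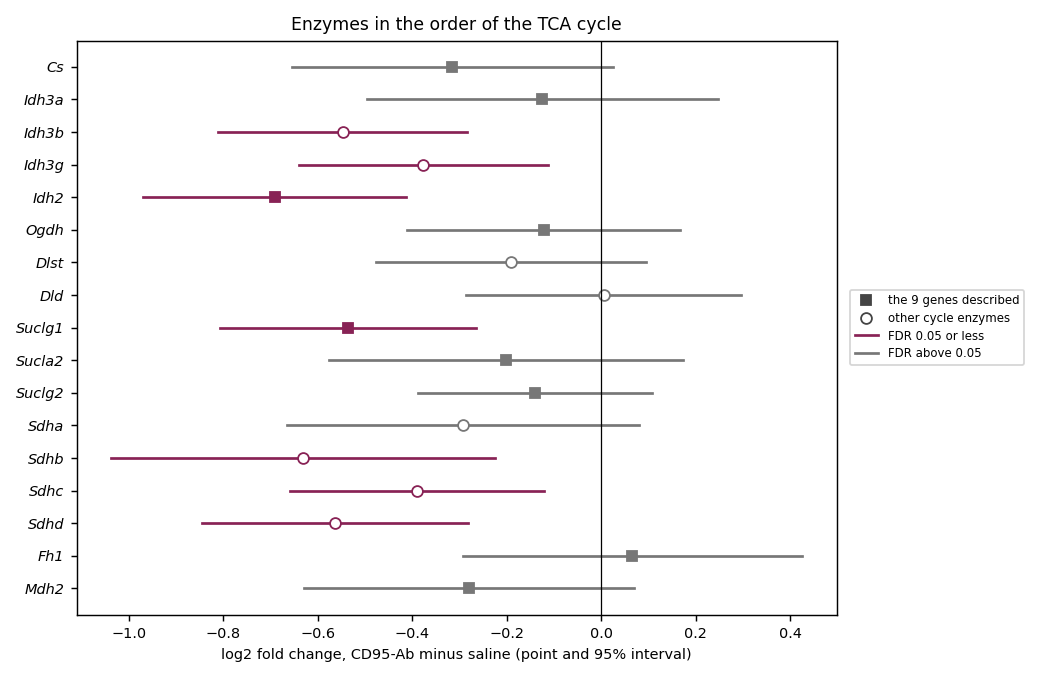
Log2 fold change, CD95-Ab minus saline, with 95% intervals (horizontal axis) for 17 genes in the order of the cycle; filled squares are the 9 genes described, open circles the other cycle enzymes, and dark red marks an FDR of 0.05 or less. The 7 genes past the threshold, from -0.69 for Idh2 to -0.38 for Idh3g, are all below 0.

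Beyond the cycle itself, 32 of 49 tested genes of 7 pathway lists, the other cycle enzymes included, were lower and 5 were higher after CD95-Ab. The shares over all tested genes, to be read beside each list, were 22.0% lower and 25.4% higher. Of 13 genes that control the entry of pyruvate, 7 were lower and 3 higher. Pdk2 and Pdk1, kinases that switch off the pyruvate dehydrogenase complex, fell by 1.93 and 1.08 on the log2 scale. Their means went from 79.3 to 20.8 CPM and from 43.6 to 20.7 CPM. Pdk3 and Pdk4, of the same family, rose by 1.98 and 1.44 at lower levels, from 0.322 to 1.28 CPM and from 3.93 to 10.6 CPM. Pdp1 and Pdp2 encode phosphatases that reactivate the complex. Pdp1 rose by 2.45 on the log2 scale, from 0.750 to 4.11 CPM, whereas Pdp2 fell by 0.72, from 17.3 to 10.4 CPM. Of the complex's own subunits Dlat was lower at -0.66 (FDR = 0.00296 by edgeR's quasi-likelihood test). Pdhb passed only narrowly, at -0.34 (FDR = 0.0499 by the same quasi-likelihood test), with overlapping groups. The values of Pdha1 and Pdhx were -0.14 and 0.00 without passing.

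Of 10 genes that feed or drain the cycle, 6 were lower and 1 was higher. Got1 and Got2, aspartate aminotransferases of cytosol and mitochondria, had log2 fold changes of -1.41 and -0.74, and the liver glutaminase Gls2 of -1.05. Pck1, which draws oxaloacetate into gluconeogenesis, was lower at -0.97. The malic enzyme gene Me2 rose (1.15) from 1.69 to 3.74 CPM, and pyruvate carboxylase, encoded by Pcx, had a value of 0.05. All 4 cytosolic counterparts fell, Acly and Aco1 by 0.59, Idh1 by 0.56 and Mdh1 by 0.47 on the log2 scale. Among 6 mitochondrial carriers, 5 fell, with the largest changes for the glutamate carrier Slc25a22 (-1.13), the dicarboxylate carrier Slc25a10 (-1.03), the aspartate-glutamate carrier Slc25a13 (-0.91) and the 2-oxoglutarate carrier Slc25a11 (-0.87).

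**Figure D5:**
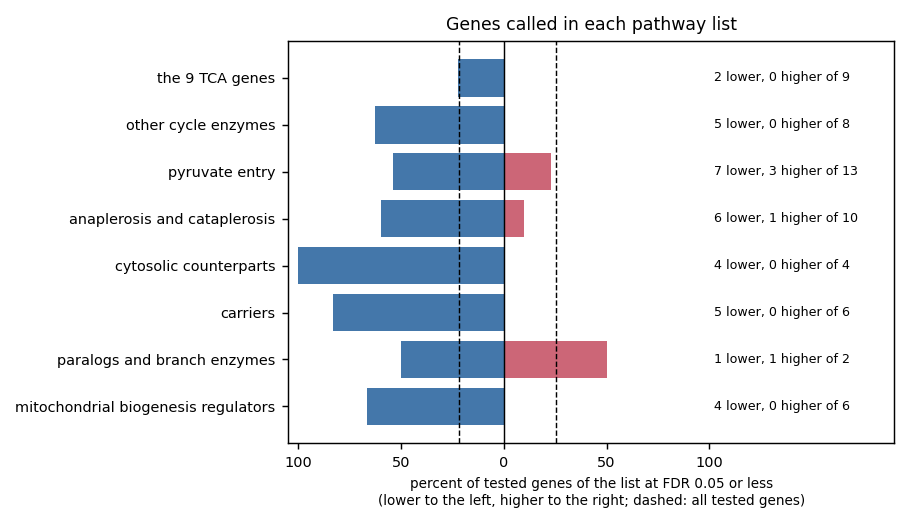
Percent of the tested genes of each list with an FDR of 0.05 or less, lower to the left and higher to the right (horizontal axis), with counts printed and the shares over all tested genes, 22.0% and 25.4%, as dashed lines. The 9 genes described lie at the dashed line for lower genes, and the other cycle enzymes beyond it with 5 of 8.

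Both tested genes of the list of paralogs and branch enzymes differed between the groups. Acod1, whose product makes itaconate from the cycle intermediate cis-aconitate in activated macrophages, was at 0.282, 0.445, 0.0563, 0.0770 and 0.0556 CPM in saline replicates 1 to 5 and at 18.2, 25.6, 16.4, 30.2 and 31.4 CPM in CD95-Ab replicates 1 to 5. The groups were far apart, with a log2 fold change of 7.05 (FDR = 7.52e-07 by edgeR's quasi-likelihood test) whose size is uncertain because the lowest control had 2 counts. Dhtkd1, a mitochondrial relative of Ogdh that acts in lysine breakdown, fell by 1.81 on the log2 scale, from 48.6 to 13.8 CPM. Ogdhl and Csl, paralogs of Ogdh and Cs, reached at most 7 and 1 counts in any mouse and were not tested.

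Of 6 regulators of mitochondrial gene expression, 4 were lower. The coactivators Ppargc1b and Ppargc1a fell by 2.87 and 1.52 on the log2 scale, the nuclear receptor Esrra by 1.24, and the mitochondrial transcription factor Tfam by 0.66. Values for Nrf1 and Gabpa, which encode factors that bind promoters of respiratory genes, were -0.10 and -0.19 and did not pass. Esrra was between 16.9 and 21.03 CPM in controls and between 6.49 and 10.7 CPM after CD95-Ab, with no overlap.

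Promoter windows of RefSeq (GRCm38.p6, 250 bases before to 50 after a start) were found for 8 of the 9 genes, and Idh3a had none. Stretches before the RefSeq start that lie in no GENCODE exon of the gene are shown for the 2 genes that fell and for Ogdh, the only gene of the 8 with a match to the NRF1 letters. The RefSeq starts of Idh2 and Suclg1, at positions 80115350 and 73248505, lie inside the GENCODE genes, so that their stretches stand directly before the GENCODE start. The Ogdh stretch precedes a start at 6292558 within the gene. Capitals mark bases covered by the NRF1 letters on either strand, and no other motif is marked.
Idh2, chr7:80115393-80115452, minus strand: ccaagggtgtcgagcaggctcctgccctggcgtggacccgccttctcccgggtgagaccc
Suclg1, chr6:73248322-73248381, plus strand: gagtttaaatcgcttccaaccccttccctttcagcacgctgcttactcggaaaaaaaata
Ogdh, chr11:6292514-6292557, plus strand: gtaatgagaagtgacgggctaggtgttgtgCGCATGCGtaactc

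Motifs were searched on both strands. The NRF1 letters GCATGCG were in windows of 1 of the 8 genes (Ogdh, in 2 of its 6 windows, which overlap), against 4.01% of all genes with a window. The ERR letters AAGGTCA were found for 1 of 8, again Ogdh in another window, against 5.38%. The ETS letters CCGGAAG were in none of the 8, against 9.93%, and in 5 of 7 other cycle enzymes with a window. The letters GGGCGG were found for 7 of 8 genes, Suclg1 being the exception, against 38.2%, and CCAAT for 5 of 8 against 41.1%. The last 2 motifs were chosen after the windows had been read. The Suclg1 window held none of the 5 motifs, so that it could share none with Idh2, the other gene that fell.

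The 5 protein-coding genes outside the lists whose profiles over the 10 mice were nearest to the mean profile of the 9 were Skp1a, Tprgl, Tufm, Tpi1 and Mrpl37. Their root mean square differences from it ran from 0.0609 to 0.0663 in log2 CPM, compared with a median of 0.402 over 12642 genes. Log2 fold changes were -0.24, -0.27, -0.27, -0.30 and -0.29 in this order. These 5 genes were picked for the smallest differences, so their closeness follows from the choice. The 9 genes, which enter the mean themselves, lay from 0.170 for Suclg2 to 0.273 for Idh2 from it, below that median.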

How the data were processed

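Liver RNA of 10 mice was analysed, 5 per group as the sample labels give them. The expected counts that the authors deposited come from RSEM (version 1.2.19 in the submitters' processing notes), are whole numbers and are not normalized. FPKM, also deposited, correct for transcript length and library total by RSEM, and served to compare levels between genes. For the annotation the methods name a human GENCODE release, whereas all identifiers in the tables are those of mouse genes, and the mouse release and genome build are not given in the sources used here. Libraries were prepared with TruSeq reagents and read in pairs. Symbols and positions came from GENCODE M21 (GRCm38), which held 37606 of the 38922 identifiers.

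Genes were kept with filterByExpr (minimum count 10), scaled with TMM factors and tested by quasi-likelihood in edgeR 4.0.16 under R 4.3.3, in a model that held group alone. CPM use TMM-adjusted totals. Ratios used the counts without a pseudocount, and exact permutation tests that enumerated all assignments of mice to groups. Adding 0.5 to each count was an alternative. The code was tested on simulated data. The lowest chi-square per degree of freedom between mice of a group was 41.7 over 20 pairs, so each mouse counted as 1 sample. Alternatives were DESeq2 1.42.0, limma 3.58.1 on log2(FPKM + 0.1), other scalings and filters, an FDR of 0.01, a block for replicate number and fits that dropped 1 mouse each.

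The 9 genes, the pathway and marker lists, the pairs for ratios and the tests were chosen with earlier results of these data known. All 9 genes are named, with the 4 largest changes of each list and others where a sentence needs them, the marker lists by counts and sums, and the 5 genes of nearest profile. One gene of the pathway lists is not reported here.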

Additional observations from a re-analysis of the deposited data

Results flagged for a closer look

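Suclg2 had 147 CPM in saline replicate 5, far below the other 4 controls, with a gap to the nearest of 0.766 of the range of the group. The Mdh2 to Mdh1 ratio was 0.396 in the same mouse, far above the other controls, with a gap of 0.733 of the range. The limit for 5 mice is 0.71, and 30 groups were checked, of which chance gives about 1 in 20. Saline replicate 5 is one of the libraries that stood apart on the second principal component, and the part of that in these values was not tested.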

How the results depend on the processing

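The number of the 9 genes called lower was 4 in place of 2 with library totals alone and with limma on log2(FPKM + 0.1), where Cs and Mdh2 joined Idh2 and Suclg1, and 2 in each of the 10 fits that left out 1 mouse. Higher genes of the pathway lists were 3 in place of 5 when at least 10 counts in every mouse were required, which tests fewer genes. Pdk3 and Acod1, with 6 and 2 counts in their lowest mice, were then not tested. The log2 fold change of Fh1 was -0.0157 with upper quartile scaling, -0.00413 with library totals, -0.0314 with limma, and between -0.0274 (without CD95-Ab replicate 3) and 0.201 when 1 mouse was left out, also below 0 (-0.0124) without saline replicate 2. The cause was not tested.

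For ratios, log2 differences when 1 mouse was left out ran from -0.46 to -0.33 for Suclg1 to Suclg2, from -0.72 to -0.48 for Idh2 to Idh3a, and from -0.141 to 0.0230 for Sucla2 to Suclg2, which turned positive without saline replicate 3 (0.0230) or CD95-Ab replicate 4 (0.00423). They ran from 0.16 to 0.35 for Mdh2 to Mdh1, from -0.29 to -0.03 for Idh2 to Idh1 and from -0.32 to -0.03 for Cs to Ogdh. Suclg1 to Suclg2 was -0.44 without both libraries that stood apart, where the smallest possible exact p is 0.0286.

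With the replicate number as a block, 2 of the 9 genes were lower, the median was -0.19, and 26 genes of the pathway lists were lower and 5 higher. The Suclg1 to Suclg2 difference of -0.40 then had an exact sign-flip p of 0.0625, the smallest that 5 pairs allow. Mice with the same number deviated with correlations from -0.27 to 0.26, and 2 of 5 numbers correlated best with their own, so numbers were not taken as pairs.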
